A study of Zea mays with 4 samples.

Results

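The binding sites described here are the OBF4 peaks that stand close together in the maize genome. OBF4 (Zm00001d012553) was studied with DAP-seq, an in vitro binding assay. A Halo-tagged protein made in a wheat germ extract is fixed to beads, fragments of purified genomic DNA are added and those that stay bound are sequenced. A peak is a place where the authors' peak caller found retained DNA in excess, and its summit is the central base. An OBF4 peak was called grouped when another OBF4 summit lay at most 1000 bp away on the same chromosome or contig, and summits were chained at that distance into groups. The members were thus selected on the measured distance between summits, which is given below as a description only. This rule chose 6453 of the 51187 OBF4 peaks, in 3098 groups, and left 44734 peaks outside groups, called lone peaks here. The whole series holds 398506 peaks of 4 factors.

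The study asked where transcription factors that act downstream of the endosperm regulators ZmNAC128 and ZmNAC130 can bind. Leaf DNA of maize inbred B73, collected at 14 DAG, was used for OBF4 and for the 3 factors set beside it, C3H23 (Zm00001d008323), CPP2 (Zm00001d031008) and THX20 (Zm00001d017420). The deposited lists carry factor names that differ from the sample titles, so which protein each list belongs to, OBF4 included, rests here on the titles. With 1 library per factor, and no control library used here, nothing could be checked across replicates, and p-values are not given. The DNA carried no nucleosomes or other proteins, so a peak shows what the protein can hold in purified leaf DNA and not what is occupied in a tissue. The number of reads is unknown, all intervals are 95% Wilson intervals unless stated otherwise, and they cover counting error only.

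As background, OBF proteins are plant bZIP factors named for binding ocs elements, short promoter sequences that hold adjoining half-sites with an ACGT core. bZIP proteins bind DNA as dimers, each partner contacting 1 side of the site. In Arabidopsis the OBF proteins belong to the TGA group, known for roles in defence and detoxification genes. C3H23 is by its name a CCCH zinc finger protein, CPP2 a member of the cysteine-rich CPP family and THX20 a trihelix protein.

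Most groups were pairs. Of the 3098 groups, 2854 (92.1%) held 2 OBF4 peaks, 232 held 3, 11 held 4 and 1 held 5. The distance between the outer summits ran from 6 to 1932 bp, with a median of 268 bp and quartiles of 159 and 522 bp. In 1139 groups (36.8%) the outer summits were at most 200 bp apart, so that their 201 bp peaks overlapped, and in 2285 (73.8%) they were at most 500 bp apart. Only 78 groups spanned more than 1000 bp. The grouped OBF4 peaks made up 12.6% of the list (12.3 to 12.9%), against 4.71% calculated for the same number of peaks spread evenly at random over each chromosome and contig, a ratio of 2.68. With the local peak density of each 100 kb taken into account, the calculated share was 5.37% and the ratio 2.35.

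The excess of close OBF4 neighbours was concentrated below 400 bp. Summits 151 to 200 bp apart were found 545 times, against 61.3 calculated for an even spread, a ratio of 8.89. The ratio was 8.16 from 101 to 150 bp, 6.58 from 201 to 250 bp and 4.74 from 251 to 300 bp, and it fell to 2.53 from 301 to 400 bp. From 801 to 900 bp it was 0.970. Distances up to 50 bp were rarer than calculated, with 25 neighbours against 61.5; the smallest distance at which the peak caller separates summits is not known. The limit of the rule does not fall in a gap of the distribution: 189 neighbours were 901 to 1000 bp apart, with a median signal of 29, and 236 were 1001 to 1100 bp apart, with a median signal of 31.7. After its low from 801 to 900 bp the ratio rose again on both sides of the limit. It was 1.57 from 901 to 1000 bp, 1.97 from 1001 to 1100 bp and 1.70 from 1501 to 2000 bp. The ratio was 0.971 from 2001 to 3000 bp, and from 3001 to 5000 bp there were 2688 neighbours against 2236 calculated.

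Set against list length, OBF4 peaks had the lowest ratio of the 4 factors when peaks were counted as deposited. The ratio of observed to calculated share was 2.68 for OBF4, 2.91 for CPP2, 4.13 for C3H23 and 4.38 for THX20. With overlapping peaks of a list joined to 1 site, the order of OBF4 and CPP2 turned: the ratio was 1.71 for OBF4, 1.44 for CPP2, 3.43 for C3H23 and 2.29 for THX20. When only the 51187 strongest peaks of each list were taken, the shares in groups were 12.6% for OBF4, 17.2% for CPP2, 28.2% for C3H23 and 28.9% for THX20, against 4.70 to 4.72% calculated. Groups of 3 or more peaks made up 7.88% of the OBF4 groups and 12.9 to 14.9% of the groups in the other lists. The largest group had 5 peaks for OBF4, 7 for C3H23 and 8 for CPP2 and for THX20.

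**Figure D1:**
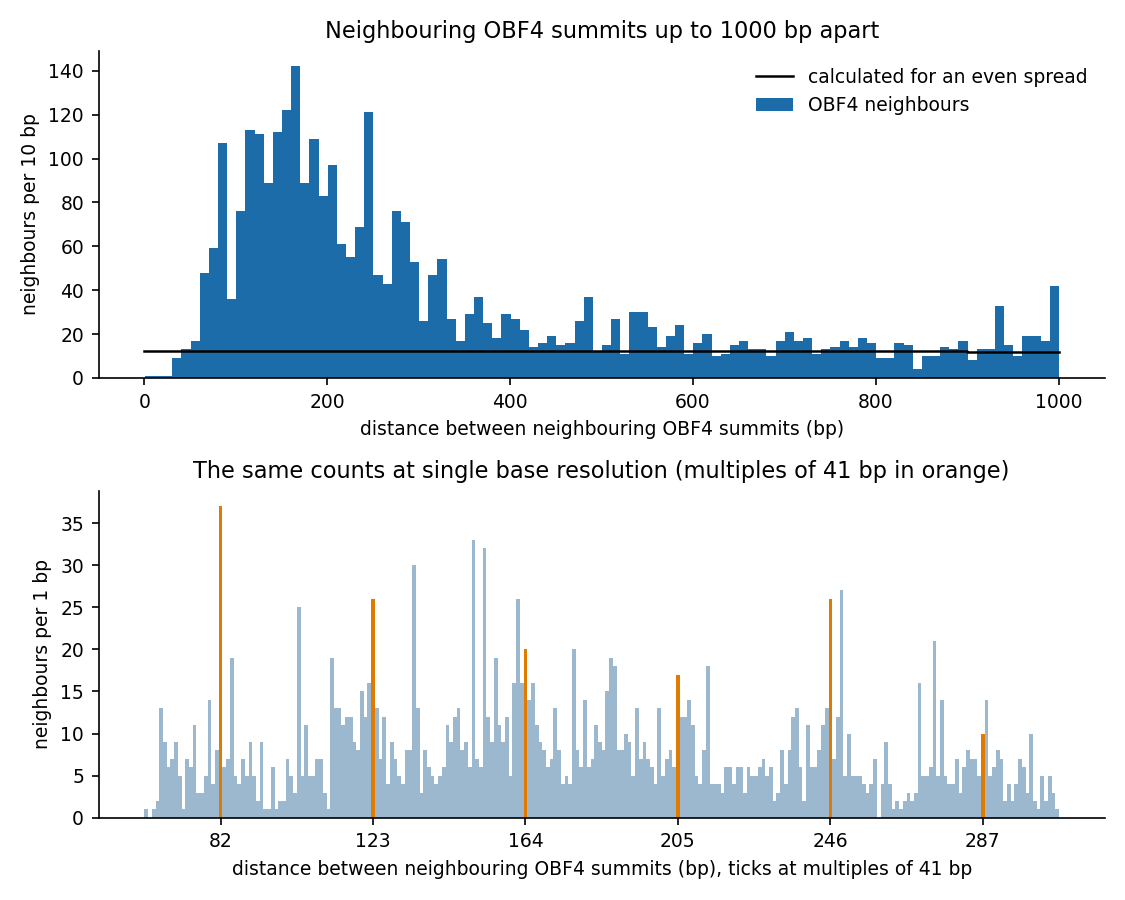
Number of neighbouring OBF4 summits by their distance in bp, in bins of 10 bp up to 1000 bp (upper panel, with the number calculated for an even random spread as a line) and at each single distance from 62 to 307 bp (lower panel, multiples of 41 bp in orange). The counts stand well above the line below 400 bp, and the highest single column is the 37 neighbours at 82 bp.

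The strongest OBF4 sites were nearly all grouped. The authors' signal, 1 number per peak on an unstated scale, was used to rank peaks within the list, and the rule did not use it. Signal and grouping need not be independent, since pairs up to 400 bp apart usually had signals with a whole sum, as described below. How far this enters the shares of strong peaks in groups was not tested. The intervals count each peak separately, though both peaks of a pair can be among the strongest. All 100 strongest OBF4 peaks lay in groups (96.3 to 100%), against 12.6% of all OBF4 peaks. Of the 200 strongest, 190 were grouped, of the 500 strongest 400 and of the 1000 strongest 650. The strongest lone peak, on chromosome 9 from 57105925 to 57106125, had a signal of 312 and ranked 103rd, with 102 grouped peaks above it. The next lone peaks lay on chromosome 7 from 147153639 to 147153839 (signal 282.8) and on chromosome 8 from 57032215 to 57032415 (signal 281).

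The grouped share was highest in the strongest 10% of the list and lowest in its middle. It was 29.9% (28.6 to 31.1%) in the strongest 10% by signal, 13.2% in the next and between 9.01% and 11.6% in the following 7 classes. The lowest was the fifth class (8.25 to 9.82%). In the weakest class it was 13.2% (12.3 to 14.2%), as in the second. The median signal was therefore only a little higher for grouped peaks (34.5, quartiles 25 and 61.6) than for lone peaks (30, quartiles 24 and 41), a ratio of 1.15. The upper ends differed more: the 90th percentile was 127 for grouped and 59.3 for lone peaks, and the highest signal 924.6 against 312. In −log10 p, the authors' own measure of significance per peak, the medians were 6.94 and 5.26.

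The other lists did not have this pattern to the same degree. Among their 100 strongest peaks, 85 were grouped for THX20, 69 for CPP2 and 57 for C3H23. Among the 5000 strongest the order had turned: 29.9% were grouped for OBF4, 42.4% for CPP2, 56.1% for C3H23 and 59.1% for THX20. The neighbours of the strongest OBF4 peaks also stood further off than overlapping peaks do. For 65 of the 100 strongest, the nearest OBF4 summit was 201 to 400 bp away, for 34 it was at most 200 bp away, and the median was 249 bp. When overlapping peaks of a list were joined to 1 site before grouping, 77 of the 100 strongest OBF4 sites still had another site within 1000 bp, against 34 for C3H23, 21 for CPP2 and 8 for THX20. This joining was chosen after the data had been seen. The other lists differ in length and in signal scale, and the part of either in these counts was not tested. Neighbours more than 200 bp apart do not overlap, so joining leaves them as they are. Unlike most pairs more than 500 bp apart, neighbours 201 to 400 bp apart usually had fractional signals with a whole sum. An example is 637.8 and 109.2 at 347 bp, which give 747. Whether such neighbours are separate sites or 1 enrichment divided by the peak caller was not tested, and the counts after joining cannot tell.

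**Figure D2:**
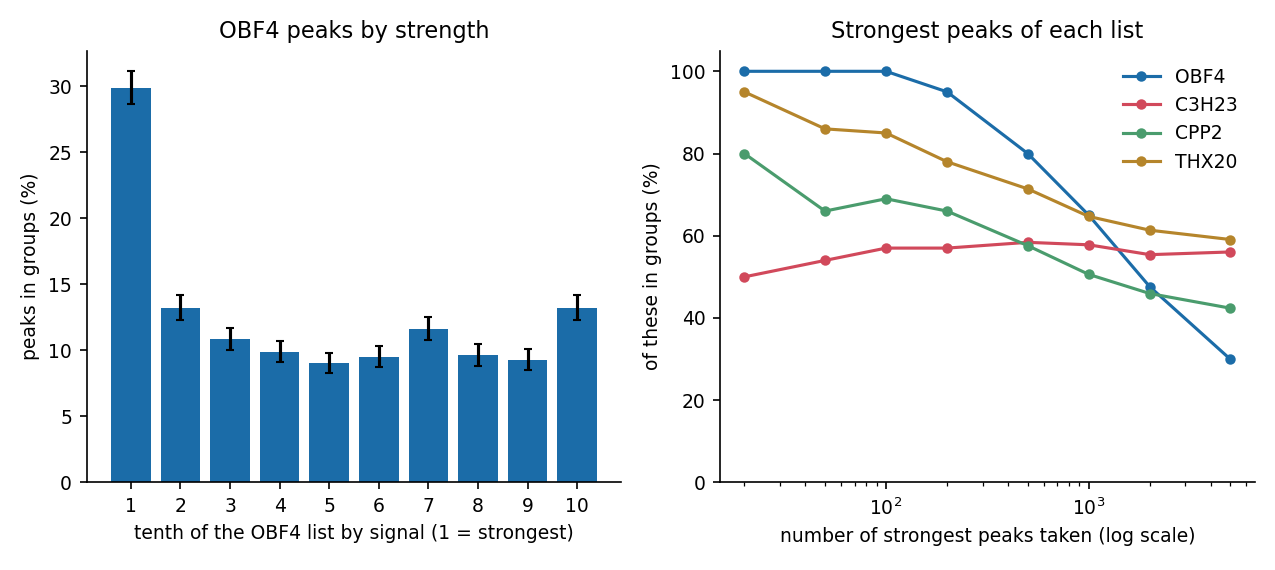
Left, share of OBF4 peaks in groups in each of 10 equal classes of the list by signal, with 95% Wilson intervals. Right, share of the strongest 20 to 5000 peaks of each list that were in groups (horizontal axis on a log scale). OBF4 starts at 100% for its 100 strongest peaks and ends lowest of the 4 lists, at 29.9% of 5000.

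Within pairs of OBF4 peaks, strong peaks went with strong partners. In the 271 pairs led by a peak of the strongest 1% of the list (signal 170 and above), the stronger peak had a median signal of 257 and the weaker one 122, with quartiles of 70.4 and 173. In 77.5% of these pairs the weaker peak was itself in the strongest 10% of the list. That class holds 10% of all OBF4 peaks by definition, and 1528 of the 6453 grouped peaks. In the 683 pairs led by a peak of the next 9%, the medians were 90.9 and 37.2, and 123 of the weaker peaks were in the strongest 10%. In the 1900 pairs led by a peak of the other 90%, the medians were 35 and 24. The weaker signal cannot exceed the stronger one, so its median falls over these classes partly by construction. The weaker peak had a median of 0.435 times the stronger signal in the first class, 0.408 times in the second and 0.735 times in the last. Over all 2854 pairs the signals of the left and right peak had a Spearman correlation of 0.335 and a Pearson correlation of 0.506 on the log scale, given as a description, since all pairs share 1 library. The left peak was the stronger in 1442 pairs (50.5%), so neither side led. Peaks at most 200 bp apart cover shared sequence. Signals of pairs further apart, up to 400 bp, were also usually fractions that add to a whole number. For example, the signals of 637.8 and 109.2 on chromosome 9, 347 bp apart, add to 747. How far reads shared or divided between neighbours enter the signals was not tested. This limits the shares of the strongest peaks in groups, the counts after joining, the ratios and correlations above and the spacings by strength below.

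The spacing of pairs changed with their strength. Among pairs led by the strongest 1%, 270 of 271 were at most 500 bp apart, the median spacing was 249 bp and 138 (50.9%) were more than 200 and at most 300 bp apart. Among pairs led by the next 9% the median spacing was 180 bp and 20.5% fell in that range. Among the remaining pairs the median was 283 bp, 16.2% fell in that range and 68.7% were at most 500 bp apart. Seen from the spacing, the share of pairs that held a peak of the strongest 10% was 46.1% up to 100 bp, 38.1% from 101 to 200 bp, 47.4% from 201 to 300 bp, 39.9% from 301 to 400 bp and between 12.1% and 13.5% in the classes above 400 bp.

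**Figure D3:**
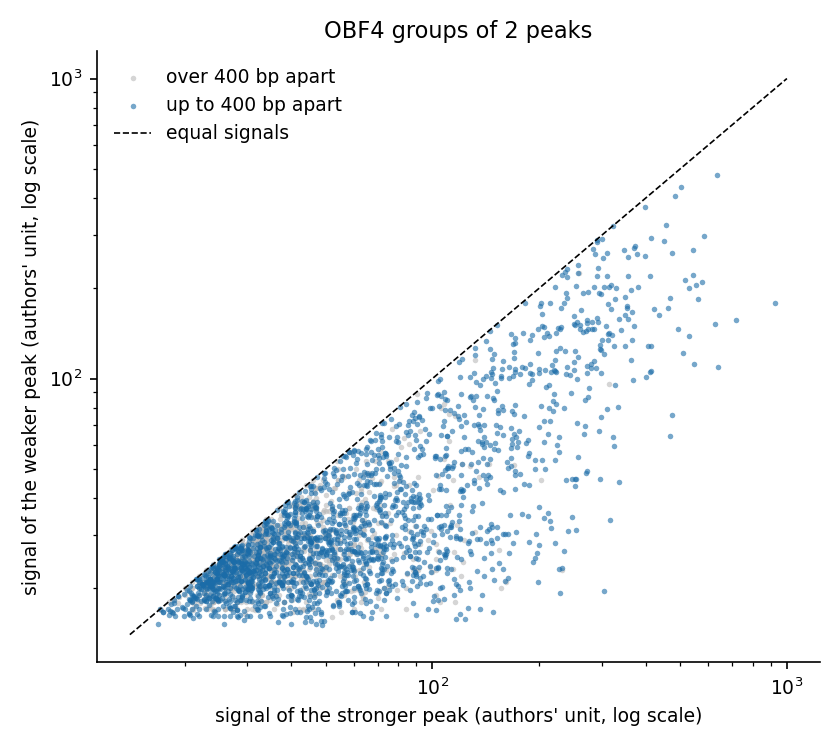
Signal of the stronger against the weaker peak in the 2854 OBF4 groups of 2 peaks, both axes in the authors' unit on a log scale, coloured by spacing. Pairs with a stronger signal of 170 and above are nearly all up to 400 bp apart, and their weaker peaks reach a median of 122.

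In groups of 3 the strongest OBF4 peak was most often the middle one. It was the middle peak in 124 of the 232 groups, the leftmost in 53 and the rightmost in 55. The median signals, ranked within each group, were 71.7, 43 and 25.9. The shorter of the 2 distances had a median of 167 bp and the longer of 379 bp, and in 108 groups both were at most 300 bp.

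The group with the most OBF4 peaks lay on chromosome 4 from 119392940 to 119394166. Its 5 peaks had signals of 56.8, 149.2, 89.7, 224.8 and 184.6 from left to right, at distances of 168, 328, 284 and 246 bp. The only other factor within 1000 bp was C3H23, with 1 summit 266 bp from the group. A group on chromosome 3 from 74394952 to 74396251 held 4 peaks with signals of 36, 358.6, 684.1 and 45.3, so that the inner peaks carried most of the signal. Their distances were 678, 225 and 196 bp. On chromosome 8 from 57731241 to 57731830, 4 peaks stood within 389 bp at distances of 118, 113 and 158 bp, with signals of 132.4, 228.5, 489.7 and 59.4. C3H23 had a summit 239 bp from this group and CPP2 one 948 bp from it. A group on chromosome 3 from 147223476 to 147224313 had signals of 21, 253.3, 185.7 and 29. The last of the leading 5, on chromosome 7 from 70604836 to 70606275, had signals of 36.3, 166.3, 123.4 and 23.9. In both, the inner neighbours were high and the outer peaks low, with no C3H23 or THX20 summit within 1000 bp; the group on chromosome 7 had a CPP2 summit at 303 bp.

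Of the 5 groups with the highest single signals, 3 were pairs, against 92.1% of all groups. The strongest OBF4 peak of all, with a signal of 924.6, stood 144 bp left of a peak with 178.4, on chromosome 3 from 88772195 to 88772539. The second, 907.5, was the middle of 3 peaks on chromosome 7 from 101447779 to 101448428, 258 bp from a left neighbour of 127.5 and 191 bp from a right neighbour of 55. On chromosome 9 from 118472513 to 118472880 a peak of 716.6 followed one of 156.4 at 167 bp, and on chromosome 9 from 59774257 to 59774804 a peak of 637.8 followed one of 109.2 at 347 bp. The 4 peaks on chromosome 3 named above complete the leading 5. In 3 of these 5 groups a C3H23 summit lay within 1000 bp, at 179, 98 and 188 bp from the nearest OBF4 summit, against 27.9% of all groups. The group on chromosome 7 and the first on chromosome 9 also had CPP2, at 143 and 214 bp, against 11.3% of all groups.

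Single distances between neighbouring OBF4 summits recurred across the genome. Of the 3355 direct neighbours in groups, 37 were exactly 82 bp apart, while the 20 nearest other distances averaged 6.55. Another 12 distances were found at least 20 times. In order of frequency they were 150 bp (33 times against a mean of 10.3), 153 bp (32 against 12.5), 134 bp (30 against 7.35), 249 bp (27 against 7.5) and 123, 162 and 246 bp (26 each, against 9.9, 12.6 and 8.55). They were followed by 103 bp (25 against 5.65), 274 bp (21 against 5.4) and 164, 177 and 488 bp (20 each, against 11.6, 8.9 and 1.7). Among these 13 distances, 488 bp stood out most from its surroundings, at 11.8 times the mean around it, followed by 82 bp at 5.65 times. Of the rarer distances found at least 9 times, 3 had higher ratios than 82 bp, namely 543 bp with 19 neighbours against a mean of 2.35, 588 bp with 12 against 1.5 and 615 bp with 9 against 1.45. They were chosen after their values were seen. Each of the 13 distances found at least 20 times occurred on 7 to 10 of the 10 chromosomes.

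Several of these distances are multiples of 41 bp. At the 6 multiples from 82 to 287 bp the neighbours numbered 37, 26, 20, 17, 26 and 10, or 136 in all. That is 22.7 per distance, against 7.8 per distance at the other positions from 62 to 307 bp, a ratio of 2.91. Each of the 6 stood above the mean of the 20 distances around it, by 1.73 to 5.65 times. The multiples of 328 and 369 bp had 6 and 2 neighbours (means around them 4.15 and 3.55), so the series faded there, and at 41 bp itself there were 2. Of all step lengths from 30 to 60 bp, 41 bp gave the highest mean count over its multiples in the range from 82 to 287 bp; the next was 30 bp with 14.7. With the stronger 50% of the OBF4 list the ratio rose to 5.08 (103 neighbours at the 6 distances). At the same 6 distances, taken from the OBF4 counts, it was 0.919 for C3H23, 1.10 for CPP2 and 0.863 for THX20. No step was searched for in those lists. The step of 41 bp and the range were chosen after the distances had been seen. Both ends of the range, 82 and 287 bp, are multiples of 41 bp, so the comparison with other step lengths favours 41 bp.

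Neighbours at multiples of 41 bp were strong and often stood beside C3H23. The stronger peak had a median signal of 107, against 56.9 for neighbours at the other distances from 62 to 307 bp. A peak of the strongest 10% was part of 72.8% of them, against 44.8% elsewhere and 36.2% of all neighbours in groups. A C3H23 summit lay within 1000 bp of either peak in 91 of 136 (66.9%), against 27.5% at the other distances and 28.6% of all neighbours in groups. The share was not equal over the series. It was 28 of 37 at 82 bp, 19 of 26 at 123 bp, 15 of 20 at 164 bp and 14 of 17 at 205 bp. At 246 bp it was 12 of 26, and at 287 bp only 3 of 10.

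The 37 pairs of summits 82 bp apart were spread over all 10 chromosomes. The stronger peak had signals from 32.5 to 223.9 with a median of 109.9, and the weaker one from 19 to 141.4 with a median of 60.8. In 30 of 37 both signals were above the list's median of 30.8, and 32 held a peak of the strongest 10%. A C3H23 summit lay within 1000 bp in 28 of 37 (75.7%, interval 59.9 to 86.6%). It never stood between the paired summits. Its distance from the nearer one ran from 222 to 722 bp with a median of 382 bp, and was between 201 and 600 bp in 27 of the 28. It was nearer to the stronger peak in 16 of 28 and to the left peak in 15 of 28, so neither side was preferred. A THX20 summit lay within 1000 bp of 12 of 37, against 10.1% of all neighbours in groups. It lay within 200 bp of either peak in 11 of 37, against 3.34% of all neighbours in groups. Some of these pairs shared a layout, with THX20 summits 22 and 164 bp right of the left OBF4 summit. The 37 pairs need therefore not be independent, and the interval above does not cover this. In 22 of the 37 pairs there was C3H23 within 1000 bp without THX20 within 200 bp, in 5 THX20 without C3H23, in 6 both and in 4 neither. CPP2 lay within 1000 bp of 2 pairs.

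Of the 82 bp pairs, the one with the highest summed signal lay on chromosome 6 from 96333663 to 96333945, with signals of 210.6 and 141.4 and no other factor within 1000 bp. The next lay on chromosome 3 from 9948510 to 9948792, with signals of 207.2 and 106.8, a THX20 summit at 27 bp and a C3H23 summit at 413 bp. The pair on chromosome 9 from 122064127 to 122064409 (188.6 and 111.4) had C3H23 at 315 bp. The pair on chromosome 3 from 78894516 to 78894798 (223.9 and 60.1) had it at 363 bp, and the pair on chromosome 9 from 19598248 to 19598530 (171 and 81.8) at 414 bp. In 4 of these 5 the nearest C3H23 summit was thus 315 to 414 bp away, and in all 5 the left peak was the stronger, as it was in 22 of the 37.

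**Figure D4:**
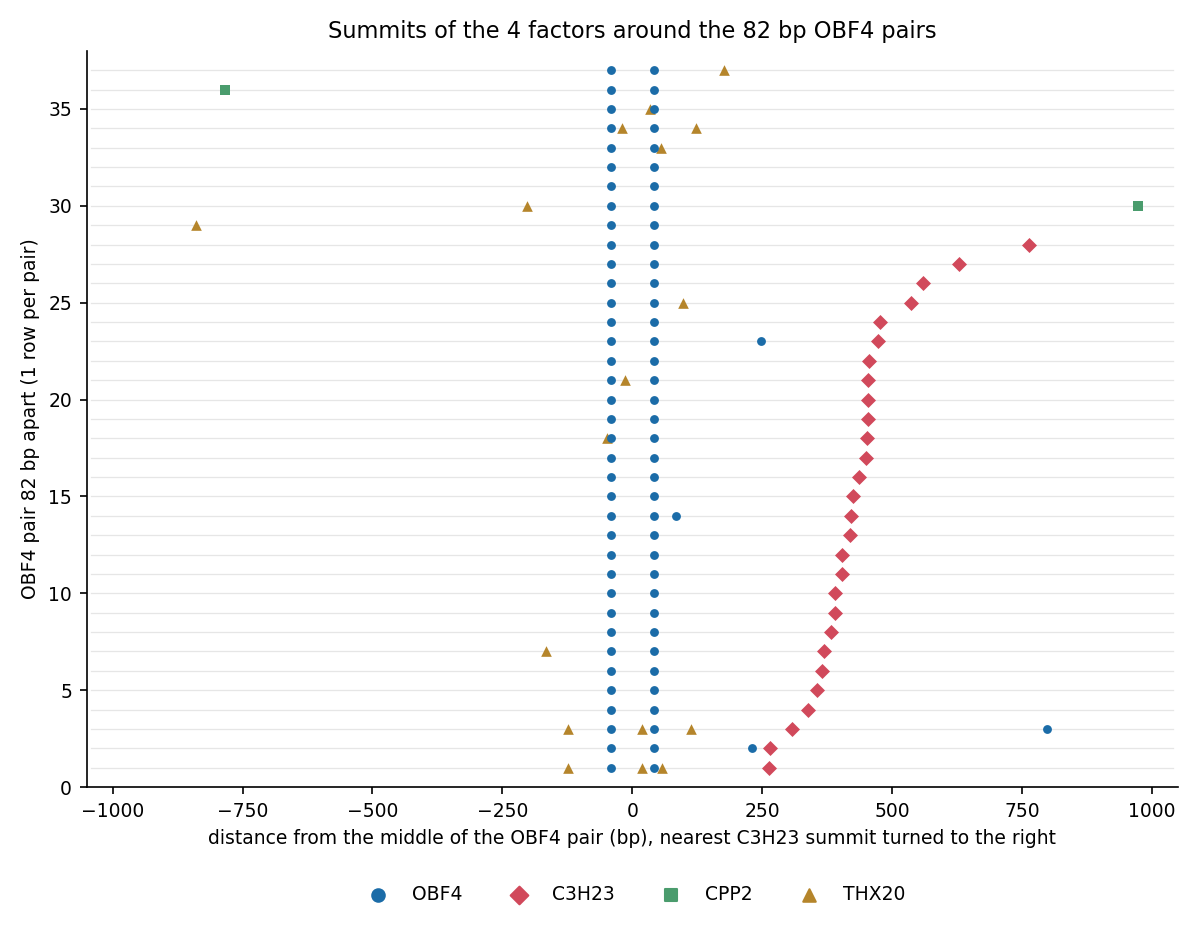
Summits of the 4 factors around the 37 OBF4 pairs 82 bp apart, 1 row per pair, by distance in bp from the middle of the pair. Rows are ordered by the distance of the nearest C3H23 summit, which is turned to the right; 28 rows have one, most at 250 to 500 bp, while THX20 summits lie close to or within the pair.

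The recurring distances differed in how often other factors stood beside them. C3H23 within 1000 bp was about as frequent at 123 bp (19 of 26) and 164 bp (15 of 20) as at 82 bp, and it was found at 162 bp in 15 of 26. It was seldom found at 150 bp (1 of 33), 134 bp (3 of 30), 103 bp (3 of 25) and 153 bp (5 of 32), where the whole interval of 150 and 134 bp lies below the 28.6% of all neighbours. At 150 bp CPP2 and THX20 were found at 1 each. At 177 bp there was C3H23 beside 4 and CPP2 beside 5 of 20, and at 274 bp C3H23 beside 7 of 21. Neighbours 246 and 249 bp apart were the strongest, with median signals of 166.8 and 221.1 for the stronger and 95.3 and 109.9 for the weaker peak. A peak of the strongest 10% was part of 24 of 26 and 22 of 27 of them, against 36.2% of all neighbours. C3H23 was within 1000 bp of 12 of 26 at 246 bp and of 8 of 27 at 249 bp.

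Among the recurring distances, neighbours 488 bp apart stood most often beside CPP2. Of the 20, 17 (85%, interval 64.0 to 94.8%) had a CPP2 summit within 1000 bp, against 11.2% of all neighbours in groups, and 1 had C3H23. The CPP2 summit was 619 to 714 bp from the nearer OBF4 summit, with 14 of 17 within 20 bp of the median of 622 bp. It stood on the side of the stronger OBF4 peak in 16 of 17 and never between the 2 peaks. The stronger peak had signals of 24.8 to 61.9 with a median of 37.95, against 48 for all neighbours in groups. The weaker one had signals of 19.7 to 50.1 with a median of 24, against 26.9. The median of the whole OBF4 list was 30.8, and none of these peaks was in the strongest 10%. The order of the summits, a weaker and a stronger OBF4 peak followed by CPP2 on the stronger side, was thus shared by 16 of the 17. The 20 neighbours lay on 9 chromosomes and 1 contig.

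Grouped and lone OBF4 peaks overlapped the other factors about equally often. C3H23 summits lay within 200 bp of 5.52% of grouped peaks (4.99 to 6.10%) and 4.94% of lone peaks (4.75 to 5.15%), with 5.01% over all OBF4 peaks. For THX20 the shares were 2.26% (1.93 to 2.65%) and 2.02% (1.89 to 2.16%), with 2.05% over all. For CPP2 they were 1.46% (1.19 to 1.78%) and 1.64% (1.53 to 1.77%), with 1.62% over all. The intervals overlapped for all 3 factors. Within 100 bp the shares of grouped peaks were 2.99% for C3H23 (3.26% of all OBF4 peaks), 0.527% for CPP2 (0.608%) and 1.39% for THX20 (1.21%).

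Beyond 200 bp C3H23 was far more frequent beside groups. To count each group once, the distance was taken from its strongest OBF4 summit. The nearest C3H23 summit was 201 to 600 bp away for 513 of 3098 groups (16.6%, interval 15.3 to 17.9%) and for 1945 of 44734 lone peaks (4.35%, 4.16 to 4.54%), a ratio of 3.81, with 5.78% over all OBF4 peaks. The share was higher in groups on each of the 10 chromosomes, from 13.7 to 20.6% in groups against 3.58 to 5.02% of lone peaks. The ratio was highest from 501 to 600 bp (4.83), 301 to 400 bp (4.43) and 401 to 500 bp (4.35). Past that range it was 2.34 from 601 to 700 bp, 2.95 from 701 to 800 bp, 1.39 from 801 to 900 bp and 1.62 from 901 to 1000 bp. Within 50 bp it was 0.858, and from 1001 to 1200 bp 0.842. The range from 201 to 600 bp was chosen after the profile had been seen. CPP2 was 201 to 600 bp away for 3.84% of groups and 3.51% of lone peaks, with overlapping intervals (3.61% over all), and THX20 for 2.87% (2.34 to 3.52%) and 4.14% (3.96 to 4.33%), a ratio of 0.694 (3.97% over all).

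The difference in C3H23 was not equal at all strengths of the OBF4 peak. Where the leading peak was in the next 9% of the list, C3H23 was 201 to 600 bp away for 27.0% of groups (24.0 to 30.3%) and 6.57% of lone peaks (5.79 to 7.44%). In the other 90% the shares were 11.2% (9.89 to 12.7%) and 4.12% (3.93 to 4.31%). In the strongest 1% they were 24.7% for 324 groups (20.3 to 29.7%) and 21.6% for 102 lone peaks (14.7 to 30.5%), so the strongest lone peaks could not be told from groups in this respect. The C3H23 peaks concerned were of ordinary strength. The 552 C3H23 peaks 201 to 600 bp from a grouped OBF4 peak had a median C3H23 signal of 39, against 36 for the whole C3H23 list and 41 for the 2481 C3H23 peaks at that distance from a lone OBF4 peak only. Of the 552, 83 were themselves grouped with other C3H23 peaks (12.3 to 18.3%), and of the 2481, 788 (31.8%, 30.0 to 33.6%), against 28.6% of all C3H23 peaks.

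**Figure D5:**
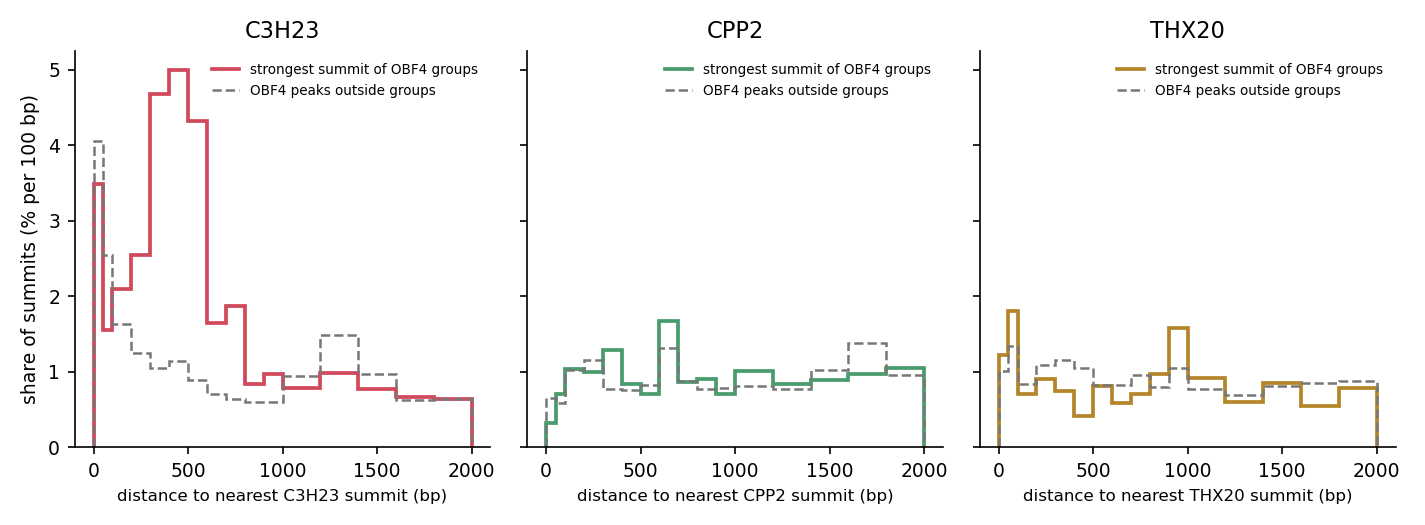
Distance in bp from an OBF4 summit to the nearest C3H23, CPP2 or THX20 summit, as the share of summits per 100 bp, for the strongest summit of each group (coloured line) and for lone peaks (grey dashed line). For C3H23 the groups stay at 4.33% or more per 100 bp from 301 to 600 bp, where lone peaks are between 0.896% and 1.15%.

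Counting every peak of a group, 863 of the 3098 groups (27.9%) had a C3H23 summit within 1000 bp of any member, 350 (11.3%) a CPP2 summit and 324 (10.5%) a THX20 summit. Over all single OBF4 peaks the shares were 13.8% for C3H23, 8.98% for CPP2 and 9.67% for THX20. A group covers more sequence than 1 peak, which raises its shares by construction. No other factor was that close to 1780 groups (57.5%), 1 was close to 1124, 2 to 169 and all 3 to 25. These numbers of factors were not counted for lone peaks, so whether they are high or low for groups cannot be told. From the strongest summit, C3H23 was within 1000 bp for 25.6% of groups of 2 (24.0 to 27.2%) and 37.1% of groups of 3 (31.1 to 43.4%), against 13.8% of all OBF4 peaks. For THX20 the shares were 9.32% (8.31 to 10.4%) and 4.31% (2.36 to 7.75%), against 9.67% of all OBF4 peaks. CPP2 gave 9.53% and 9.05%, against 8.98%.

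Of the 25 groups near all 3 other factors, the one with the most OBF4 peaks and signal lay on chromosome 4 from 91093331 to 91094477. Its 4 OBF4 peaks had signals of 82.4, 141.6, 23.1 and 32.9, and the nearest summits were THX20 at 59 bp, C3H23 at 152 bp and CPP2 at 301 bp. A group of 4 weak OBF4 peaks (28, 19.3, 18.9 and 34.9) on chromosome 3 from 99044837 to 99046873 had C3H23 at 137 bp, THX20 at 306 bp and CPP2 at 954 bp. A group of 3 on chromosome 5 from 147344926 to 147345947 (126, 107 and 29) had C3H23 at 121 bp, CPP2 at 205 bp and THX20 at 236 bp. The other two lay close to each other on chromosome 2, from 140100337 to 140100657 (138.5 and 47.5) and from 140106918 to 140107235 (152.3 and 65.7). They resembled each other, with OBF4 spacings of 120 and 117 bp, C3H23 at 57 and 34 bp, CPP2 at 271 and 236 bp and THX20 at 819 and 878 bp.

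Grouped OBF4 peaks were found all along the chromosomes. Their share of the OBF4 peaks was between 11.5% on chromosome 10 and 13.6% on chromosome 7. The density of grouped peaks was 3.47 per Mb in the middle 20% of each chromosome and 2.41 per Mb in its end parts, 10% on each side. The ratio of these densities was 1.44 (counting interval 1.33 to 1.56) for grouped peaks and 1.35 (1.31 to 1.39) for lone peaks. The ratio was above 1 on 10 of 10 chromosomes for grouped peaks (1.02 to 1.95) and for lone peaks (1.17 to 1.65), and it was higher for grouped peaks on 6 of 10. By strength of the group it was 1.27 (1.10 to 1.46) for groups led by the other 90% of the list, 1.66 (1.32 to 2.09) for the next 9% and 2.09 (1.39 to 3.12) for the strongest 1%. These intervals overlap, and lone peaks of the strongest 10% had 1.48 (1.33 to 1.65). Of the 322 groups on chromosomes led by the strongest 1%, 10 lay in the last of 10 equal parts of the chromosome and 49 in the fullest, the fourth.

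The fullest bin of 1 Mb held 18 grouped OBF4 peaks, on chromosome 8 from 55000001 to 56000000, against a mean of 3.03 per Mb. The next held 16 each, on chromosome 2 from 140000001 to 141000000, which contains the similar groups near all 3 other factors, and on chromosome 9 from 53000001 to 54000000. There were no grouped OBF4 peaks in 542 of 2101 full bins. On contigs not placed on a chromosome, 77 of 609 OBF4 peaks were grouped (12.6%, interval 10.2 to 15.5%), in 38 groups on 26 contigs, the same share as the 12.6% on chromosomes.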

How the data were processed

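The submitters' processing notes name Trimmomatic 0.39, a read trimmer, and Bowtie2 2.4.1, a read aligner. Which program called the peaks, with what control and on which build, is not given in the sources used here. The deposited lists, 1 per factor, have 201 bp peaks with the summit 100 bp after the start. Per peak they hold the authors' score (not used), the authors' signal of unstated scale, and, as deposited, −log10 of a p-value and of a q-value (lowest −log10 q 3).

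The members and lists were chosen with earlier results of these data known. Summits at most 1000 bp apart were chained. Shares for an even spread are closed-form values, 1 minus the exponential of minus 2 times density times distance, with density per chromosome or contig. Overlap means summits at most 200 bp apart. Medians, shares and ratios are descriptions of 1 library per factor. Recurring distances are those found at least 20 times. Named groups follow a rule: 5 each with the most peaks, the highest signals, the highest summed signal at 82 bp and the most other factors within 1000 bp. Ratios of densities have counting intervals. The procedures were tested on simulated data. Python 3.11.15, numpy 2.4.6, pandas 2.3.3, scipy 1.17.1 and matplotlib 3.10.9 were used.

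Positions are as deposited, counted from 1. No genome was used here. The gene table at hand, of another coordinate system, ends past the last peak on 9 chromosomes and before it on 1, so no gene or sequence is assigned.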

Additional observations from a re-analysis of the deposited data

How the results depend on the processing

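No paired analysis was possible because there was 1 library of each factor, which also left no replicate to leave out. The share of OBF4 peaks in groups was 9.67% with 500 bp and 19.5% with 2000 bp as the chaining distance, 9.61% with the stronger 50% of the list by signal, 11.3% by p-value and 7.83% with overlapping peaks merged to 49849 sites. Its ratio to the calculated share was 4.06, 2.12, 4.03, 4.72 and 1.71 in the same order, 2.56 with the density per 1 Mb and 2.35 per 100 kb, so it stayed above 1 under each of these. The ratio of median signal, grouped over lone peaks, was 1.32 in −log10 p, 1.25 with 500 bp, 1.10 with 2000 bp and 1.07 in groups without overlapping peaks. The share of grouped peaks near C3H23 was 2.99% within 100 bp, 27.1% within 1000 bp, 9.52% counted over groups and 2.52% with the stronger 50% of both lists. For CPP2 these were 0.527%, 9.58%, 2.52% and 0.447%, and for THX20 1.39%, 8.85%, 3.49% and 1.59%. The ratio of shares with C3H23 201 to 600 bp away was 5.36 with the stronger 50% of both lists and 3.31 from the weakest summit of a group, both added after seeing the data. Leaving out the contigs, run for the share in groups, its ratio to the calculated share and the ratio of median signal, kept these 3 within their counting intervals. The 37 neighbours at 82 bp were 37 among all pairs of a group and 30 in the stronger 50%. Narrower or wider distances and shorter lists change shares by construction; for the remaining shifts the cause was not tested. Read depth, which is unknown, limits all of these counts.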
